A study of Mus musculus with 12 samples.

Results

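The *Ly6* genes described here are the 4 members that the rule names and that the table lists: *Ly6a*, *Ly6c1*, *Ly6c2* and *Ly6e*, 4 of 12809 genes, together with the sum of *Ly6c1* and *Ly6c2*. They were chosen by name, as surface proteins of one family, and not by a measured value. RNA was sequenced from CD4 and CD8 T cells that had been electronically sorted from lymph nodes (LN) of female B6 (C57BL/6) mice, 10 weeks old in the labels, and female FlipFlop mice, 14 weeks old in the labels. There were 3 libraries in each of 4 groups, 12 in all. In FlipFlop mice both copies of *Cd8a* encode CD4 protein and both copies of *Cd4* encode CD8αβ.1 protein, while B6 mice carry the unaltered loci. The altered loci came from 4in8 and 8in4 mice, and the study describes some genes of strain 129 as remaining in FlipFlop mice. Age changes together with strain in the labels, so that an effect of one cannot be told apart from an effect of the other. B6 CD4 and FlipFlop CD8 T cells both take their coreceptor from the *Cd4* loci and are called the *Cd4*-locus groups here, and B6 CD8 and FlipFlop CD4 T cells are the *Cd8*-locus groups.

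Ly6 proteins are small, cysteine-rich proteins with a 3-finger fold that sit on the cell surface through a glycosylphosphatidylinositol (GPI) anchor. Several are induced by interferons and by T cell activation, and antibodies to them are used to tell leukocyte populations apart. *Ly6a* encodes Sca-1, a marker of stem cells and of activated T cells, and *Ly6e* encodes a widely expressed member also known as TSA-1 or Sca-2. *Ly6c1* and *Ly6c2* encode nearly identical forms of Ly-6C, known from monocytes, endothelial cells and memory CD8 T cells, and antibodies to Ly-6C do not usually separate these forms.

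The 4 genes lie within one cluster on chromosome 15 (GRCm38). *Ly6e* (ENSMUSG00000022587.14) occupies chr15:74955051-74959905 on the plus strand. *Ly6a* (ENSMUSG00000075602.10, chr15:74994877-74998031), *Ly6c1* (ENSMUSG00000079018.10, chr15:75044018-75048830) and *Ly6c2* (ENSMUSG00000022584.14, chr15:75108158-75111970) follow on the minus strand. The start of *Ly6c2* lies 63.1 kb from that of *Ly6c1*. All 4 are annotated as protein-coding, and the values are given per gene and not per transcript.

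The coding sequences show how close the members are, which matters because one read can match more than one of them. In the GENCODE M21 transcripts, *Ly6c1* and *Ly6c2* have coding sequences of 396 bases each that differ at 9 bases and are 97.7% identical. *Ly6a* is 82.0% identical to *Ly6c1* and 81.7% to *Ly6c2*, counted over aligned columns, and the identity of *Ly6e* to the other members is between 49.9% and 52.6%. Below are coding bases 1 to 150 of *Ly6c1* (transcript Ly6c1-201) and *Ly6c2* (Ly6c2-201), 5′ to 3′, shown because 6 of the 9 differences fall in this stretch. Capitals mark the bases that differ between the paralogs.
Ly6c1 coding: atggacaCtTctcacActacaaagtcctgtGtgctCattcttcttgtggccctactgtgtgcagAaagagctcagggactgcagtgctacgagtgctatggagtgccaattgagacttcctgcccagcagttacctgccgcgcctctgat
Ly6c2 coding: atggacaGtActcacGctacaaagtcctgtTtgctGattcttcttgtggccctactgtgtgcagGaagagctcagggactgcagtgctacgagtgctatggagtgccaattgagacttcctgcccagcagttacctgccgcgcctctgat

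Windows of 100 bases were compared by exact match over all annotated transcripts of each gene. Most of these windows occurred in 1 gene only. The exons of all transcripts cover 1677 bases in *Ly6c1* and 2740 in *Ly6c2*, against 844 and 822 in their longest coding transcripts. The shared part of those coding transcripts was not taken and can be larger, and reads aligned with mismatches are not covered. Of the 1756 such windows in *Ly6c1* transcripts, 159 also occur in *Ly6c2* and 19 in *Ly6a*, together 10.1%. For *Ly6c2* the share is 5.81% of 2737 windows and for *Ly6a* 1.45% of 1311 windows, in both cases shared with *Ly6c1*. None of the 4559 windows of *Ly6e* occurs in another gene. The deposited values show traces of this sharing. Expressed in reads, *Ly6e* was a whole number in 12 of 12 libraries (within 0.02 of a read), whereas *Ly6c1* and *Ly6c2* were whole in 0 of 12. The sum of *Ly6c1* and *Ly6c2* was whole in 6 of 12 libraries, and the sum of *Ly6a*, *Ly6c1* and *Ly6c2* was whole in 12 of 12. The fractional parts of these 3 genes thus cancelled in their sum, and the small values of *Ly6c1* and *Ly6c2* in the groups where the other paralog is high are uncertain. The sum does not depend on how reads were divided between the pair, apart from those shared with *Ly6a*.

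The bases before the start sites are given because the paralogs differ in direction between the groups, as the values below show. RefSeq (GRCm38.p6) promoter windows, 250 bases before to 50 after a start site, were at hand for 2 of the 4 genes, *Ly6c1* and *Ly6c2*, with 2 windows each. Shown are the 250 bases before the more upstream start, on the minus strand and 5′ to 3′, at chr15:75048838-75049087 for *Ly6c1* and chr15:75111972-75112221 for *Ly6c2*. Capitals mark a match to the Runx motif TGTGGT on either strand.
Ly6c1 upstream: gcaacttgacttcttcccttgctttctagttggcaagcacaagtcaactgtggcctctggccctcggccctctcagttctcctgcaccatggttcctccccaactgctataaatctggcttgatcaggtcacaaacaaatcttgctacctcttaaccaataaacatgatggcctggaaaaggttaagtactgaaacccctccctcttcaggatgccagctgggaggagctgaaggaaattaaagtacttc
Ly6c2 upstream: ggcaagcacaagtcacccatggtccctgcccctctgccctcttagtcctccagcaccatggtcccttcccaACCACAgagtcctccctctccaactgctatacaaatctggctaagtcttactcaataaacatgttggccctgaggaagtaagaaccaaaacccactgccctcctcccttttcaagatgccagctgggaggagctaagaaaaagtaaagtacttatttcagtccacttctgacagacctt

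The aligned parts of these 2 windows of 300 bases are 73.8% identical over 282 columns. The *Ly6c2* window holds 1 Runx match, 179 bases before the start and in reverse orientation, and neither window of *Ly6c1* holds one. Of 32851 promoter windows of this length, 16.8% hold the motif. An ETS motif (AGGAAG), found in 35.4% of windows, occurs 2 times in this *Ly6c2* window and 0 times in this *Ly6c1* window, but 3 times in the second window of *Ly6c1*. The last 2 of these 3 matches overlap each other, and no other matches do. Motifs of interferon-stimulated response elements (GAAANNGAA, in 8.56% of windows) and gamma-activated sites (TTCNNNGAA, in 8.30%) occur in none of these windows. These are matches of letters and not measured binding.

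The reads on listed genes numbered 26570285 to 33115728 per library. A gene at 0 reads could still have up to 3, or 0.0857 to 0.120 CPM depending on the library, a bound for counting error alone. Values are CPM, read counts relative to the total of the library, scaled between libraries by the trimmed mean of M-values (TMM). *Zbtb7b*, which encodes ThPOK, had means of 196 ± 5.99 and 168 ± 5.62 CPM (SD, n = 3) in the B6 and FlipFlop *Cd4*-locus groups, against 1.55 ± 0.416 and 2.29 ± 0.464 CPM in the B6 and FlipFlop *Cd8*-locus groups, and *Cd3e* was between 336 and 410 CPM in every library.

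*Ly6c1* was high in the *Cd4*-locus groups and at most 1.29 CPM in the *Cd8*-locus groups. In replicates 1 to 3 of B6 CD4 T cells it measured 117, 95.5 and 146 CPM, and in those of FlipFlop CD8 T cells 99.4, 72.8 and 57.8 CPM. In B6 CD8 T cells it measured 0.731, 0.140 and 0.510 CPM, which is 3.49 to 19.5 reads, and in FlipFlop CD4 T cells 1.18, 0.933 and 1.29 CPM. Every library of the first pair of groups was above every library of the second. B6 CD4 exceeded B6 CD8 T cells by 6.997 on the log2(CPM + 0.5) scale (standard error 0.25, adjusted p = 1.80e-09), a ratio of mean CPM of 260. In FlipFlop mice the sign turned, with a CD4 minus CD8 difference of -5.53 (standard error 0.25, adjusted p = 1.05e-08), that is 67.6 times more in CD8 T cells. Because these are bulk samples, fewer cells that express a gene and less RNA per cell cannot be told apart. The pseudocount understates the change of a gene with so few reads.

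*Ly6c2* went the other way. Its B6 CD8 libraries measured 531, 642 and 704 CPM, and those of FlipFlop CD4 T cells 253, 211 and 302 CPM. In B6 CD4 T cells it measured 3.76, 3.22 and 11.4 CPM, and in FlipFlop CD8 T cells 27.9, 17.6 and 30.3 CPM. The 4 groups did not overlap, and B6 CD4 replicate 3 stood above the other libraries of its group. The CD4 minus CD8 difference was -6.76 in B6 mice (standard error 0.36, adjusted p = 4.72e-08) and 3.33 in FlipFlop mice (standard error 0.36, adjusted p = 1.60e-05). The mean was thus 102 times higher in CD8 than in CD4 T cells of B6 mice (179 times without B6 CD4 replicate 3) and 10.1 times higher in CD4 than in CD8 T cells of FlipFlop mice.

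**Figure D1:**
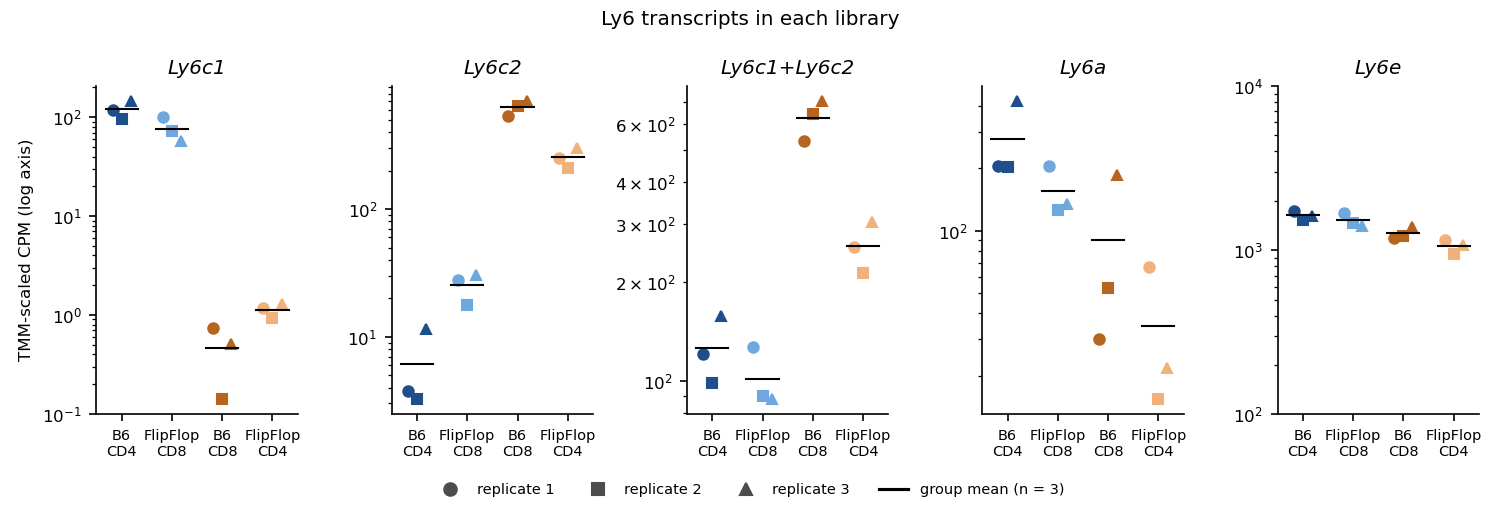
TMM-scaled CPM (log axis) of *Ly6c1*, *Ly6c2*, their sum, *Ly6a* and *Ly6e* in each of the 12 libraries, with points for replicates and bars for group means (n = 3). *Ly6c1* lies from 57.8 to 146 CPM in the *Cd4*-locus groups (B6 CD4, FlipFlop CD8) and reaches at most 1.29 CPM in the others, *Ly6c2* has the opposite order, and *Ly6e* varies least, from 952 to 1743 CPM.

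The sum of *Ly6c1* and *Ly6c2* shows the total level of Ly-6C transcripts. In B6 CD8 T cells it measured 532, 642 and 704 CPM, and in FlipFlop CD4 T cells 254, 212 and 304 CPM. In B6 CD4 T cells it measured 121, 98.7 and 157 CPM, and in FlipFlop CD8 T cells 127, 90.4 and 88.1 CPM. B6 CD4 and FlipFlop CD8 T cells overlapped, and the other groups stood apart from them and from each other. The sum was lower in CD4 than in CD8 T cells of B6 mice by 2.33 on the log2 scale, with a difference of -2.33 (standard error 0.19, adjusted p = 2.04e-06), and higher in CD4 than in CD8 T cells of FlipFlop mice by 1.33 (adjusted p = 0.000181). An exact two-sided permutation test over libraries gave p = 0.1 for each of these comparisons, the smallest that 3 against 3 libraries allow, and p = 0.00216 for the 6 *Cd4*-locus against the 6 *Cd8*-locus libraries, the smallest that 6 against 6 allow. With libraries exchanged only within a strain the exact p was 0.005, and with FlipFlop libraries exchanged only within their replicate number it was 0.0125, in each case the smallest possible.

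The paralogs have longest coding transcripts of similar length, 844 and 822 bases, so that their CPM can be set against each other. Within a library, the share of *Ly6c1* in this sum does not depend on the scaling between libraries. It was 96.9%, 96.7% and 92.7% in B6 CD4 T cells and 78.1%, 80.5% and 65.6% in FlipFlop CD8 T cells. In B6 CD8 T cells it was 0.137%, 0.0218% and 0.0724%, and in FlipFlop CD4 T cells 0.465%, 0.439% and 0.424%. *Ly6c1* therefore made up most of the Ly-6C transcripts in every *Cd4*-locus library and under 1% in every *Cd8*-locus library. No 2 groups overlapped. The means were 85.1% ± 12.5 (SD, n = 6) and 0.260% ± 0.204 (SD, n = 6), an exact two-sided permutation p of 0.00216 (0.005 within strain, and 0.0125 with FlipFlop libraries also kept to their replicate number), and each pair of groups gave an exact p of 0.1. The share in FlipFlop CD8 T cells was 20.7 percentage points below that in B6 CD4 T cells, and *Ly6c2* was the paralog that differed more between this pair.

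**Figure D2:**
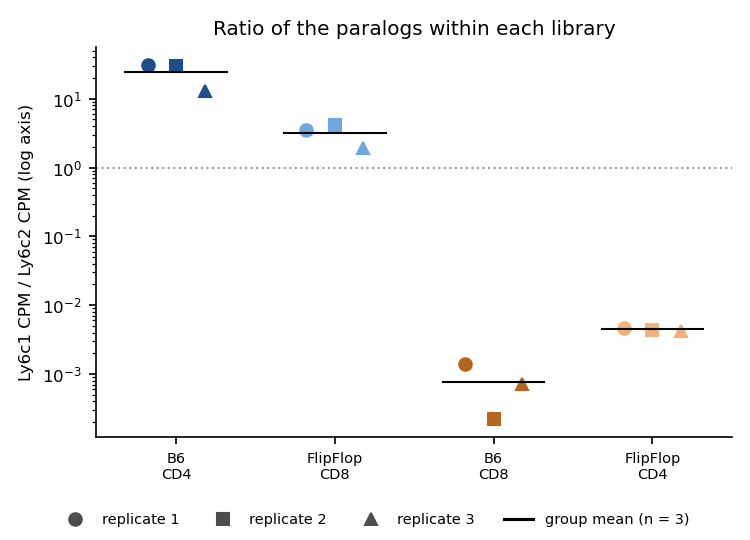
Ratio of *Ly6c1* to *Ly6c2* CPM within each library (log axis), with points for replicates, bars for group means (n = 3) and a dotted line at equal levels. The ratio is between 12.8 and 31.2 in B6 CD4 and between 1.91 and 4.14 in FlipFlop CD8 T cells, and at most 0.00467 in all libraries of B6 CD8 and FlipFlop CD4 T cells.

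*Ly6a* followed the direction of *Ly6c1* with a far larger spread between replicates. B6 CD4 libraries had 204, 202 and 422 CPM, and B6 CD8 libraries had 30.1, 53.0 and 186 CPM. FlipFlop CD8 T cells had 206, 126 and 134 CPM, and FlipFlop CD4 T cells had 67.0, 15.3 and 21.8 CPM. Within each strain CD4 and CD8 libraries did not overlap, but the *Cd4*-locus and *Cd8*-locus groups overlapped through B6 CD8 replicate 3. The CD4 minus CD8 difference was 1.95 in B6 mice (standard error 0.63, adjusted p = 0.0384) and -2.40 in FlipFlop mice (standard error 0.63, adjusted p = 0.0112). The B6 call was lost without any 1 of 6 libraries: B6 CD4 replicate 2 (2.13, adjusted p = 0.0587) or 3 (1.59, 0.115), B6 CD8 replicate 1 (1.38, 0.155) or 2 (1.78, 0.121), and FlipFlop CD8 replicate 2 (1.95, 0.0506) or 3 (1.95, 0.0507). The FlipFlop call was lost without FlipFlop CD4 replicate 2 (-1.97, adjusted p = 0.0529). The ratio of CD4 to CD8 means was 3.07 in B6 mice and 6.64 without B6 CD8 replicate 3, and in FlipFlop mice it was 0.223 and 0.120 without FlipFlop CD4 replicate 1.

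*Ly6e* had the smallest differences of the 4 members. B6 CD4 libraries had 1743, 1528 and 1616 CPM, and B6 CD8 libraries had 1187, 1227 and 1385 CPM. FlipFlop CD8 T cells had 1694, 1468 and 1413 CPM, and FlipFlop CD4 T cells had 1154, 952 and 1069 CPM. The *Cd4*-locus libraries were all above the *Cd8*-locus libraries, by a small margin. The CD4 minus CD8 difference was 0.36 in B6 mice (standard error 0.10, adjusted p = 0.0207), a ratio of 1.29, and -0.53 in FlipFlop mice (standard error 0.10, adjusted p = 0.00192), a ratio of 0.694. Without B6 CD8 replicate 1 (0.32, adjusted p = 0.0797) or replicate 2 (0.34, adjusted p = 0.0766) the B6 difference was not called.

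Between CD4 and CD8 T cells, all 4 members were called at an adjusted p under 0.05 in B6 mice, where 25.4% of the 11595 tested genes were called, and all 4 in FlipFlop mice, where 31.3% were called. The comparisons within and between strains share libraries. For the difference between the *Cd4*-locus and the *Cd8*-locus groups, the lineage effect, which tests the same contrast as the interaction of strain and coreceptor, 39.3% of tested genes were called. Again all 4 members were called. The lineage effect was 6.27 for *Ly6c1* (standard error 0.17, adjusted p = 9.59e-11), -5.05 for *Ly6c2* (standard error 0.25, adjusted p = 1.08e-08), 2.17 for *Ly6a* (standard error 0.44, adjusted p = 0.00181) and 0.45 for *Ly6e* (standard error 0.07, adjusted p = 0.000357). For the sum of the paralogs it was -1.83 (adjusted p = 3.60e-07), so the total followed *Ly6c2*. All 4 members kept this call without any 1 library.

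**Figure D3:**
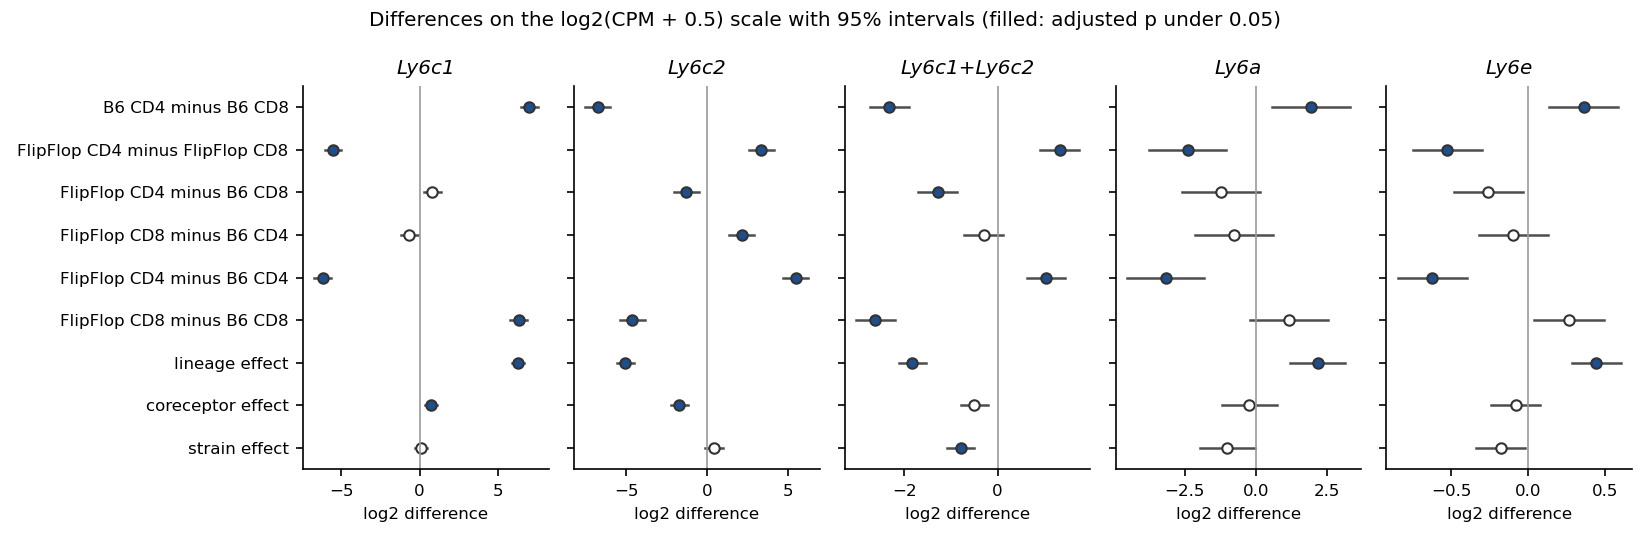
Differences of the Ly6 genes and of the sum on the log2(CPM + 0.5) scale (x axis, a scale of its own in each panel) for the 6 pairs of groups and the 3 effects (rows), with 95% intervals from limma and filled points at an adjusted p under 0.05. The lineage effect is 6.27 for *Ly6c1* and -5.05 for *Ly6c2*, while the coreceptor and strain effects lie nearer to 0.

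FlipFlop CD4 T cells were next compared with B6 CD8 T cells, the groups whose coreceptor comes from the *Cd8* loci. Here 7.92% of tested genes were called, and 1 of the 4 members. *Ly6c2* was lower in FlipFlop CD4 T cells, with a difference of -1.30 (95% interval -2.07 to -0.52, adjusted p = 0.0454), or 2.45 times more in B6 CD8 T cells. This call was lost without any 1 of 8 libraries, the 3 of FlipFlop CD4, the 3 of B6 CD8 and FlipFlop CD8 replicates 1 and 3, with differences of -1.42 to -1.17 and adjusted p up to 0.157. The sum, however, was lower by a similar amount at -1.29 (standard error 0.19, adjusted p = 0.00126), and remained called without any 1 library. *Ly6c1* differed by 0.81 (95% interval 0.27 to 1.35, adjusted p = 0.0688) and *Ly6e* by -0.26 (95% interval -0.49 to -0.04, adjusted p = 0.157), and neither was called. Without B6 CD8 replicate 1, *Ly6c1* was called (1.02, adjusted p = 0.0391). *Ly6a* differed by -1.23 (95% interval -2.59 to 0.14, adjusted p = 0.269) with overlapping libraries, and its ratio of means, 0.387, was 0.836 without B6 CD8 replicate 3 and 0.207 without FlipFlop CD4 replicate 1.

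FlipFlop CD8 T cells were compared with B6 CD4 T cells in the same way, with 27.6% of tested genes called. *Ly6c2* was again the member that was called, higher in FlipFlop CD8 T cells by 2.13 (standard error 0.36, adjusted p = 0.00153), a ratio of means of 4.12, or 7.24 without B6 CD4 replicate 3. *Ly6c1* differed by -0.65 (95% interval -1.19 to -0.11, adjusted p = 0.0675), and it was called without B6 CD4 replicate 2 (-0.80), B6 CD8 replicate 2 (-0.65) or FlipFlop CD8 replicate 1 (-0.86). For *Ly6a* the difference was -0.77 (95% interval -2.13 to 0.59, adjusted p = 0.366), and for *Ly6e* it was -0.10 (95% interval -0.32 to 0.13, adjusted p = 0.491). The sum differed by -0.30 (95% interval -0.71 to 0.12, adjusted p = 0.258). These last 4 measures had overlapping libraries.

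The remaining pairs compare the strains for the same coreceptor protein. For CD4 T cells (FlipFlop minus B6), 28.4% of tested genes and all 4 members were called, with differences of -6.18 for *Ly6c1*, 5.46 for *Ly6c2*, -3.17 for *Ly6a* and -0.62 for *Ly6e*. In this pair the ratio of FlipFlop to B6 means was 41.6 for *Ly6c2* and 73.2 without B6 CD4 replicate 3, and for *Ly6a* it was 0.126 and 0.0673 without FlipFlop CD4 replicate 1. For CD8 T cells (FlipFlop minus B6), 44.7% of tested genes were called, together with *Ly6c1* (6.35) and *Ly6c2* (-4.63). *Ly6a* differed by 1.18 (95% interval -0.19 to 2.54, adjusted p = 0.147) and *Ly6e* by 0.27 (95% interval 0.04 to 0.49, adjusted p = 0.0530) between the strains' CD8 T cells. Without B6 CD8 replicate 3, both were called, *Ly6a* at 1.91 and *Ly6e* at 0.33, and the ratio of means of *Ly6a* was 3.74 in place of 1.73.

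Averaged over the strains, the coreceptor effect (CD4 minus CD8) was called for 5.49% of tested genes and for 2 of the 4 members, *Ly6c1* at 0.73 (standard error 0.17, adjusted p = 0.0308) and *Ly6c2* at -1.71 (standard error 0.25, adjusted p = 0.00189). The *Ly6c1* call was lost without any 1 of 8 libraries, B6 CD4 replicates 1 and 3, B6 CD8 replicates 2 and 3, FlipFlop CD4 replicates 1 and 3 and FlipFlop CD8 replicates 2 and 3, with effects of 0.60 to 0.76 and adjusted p up to 0.0741. The strain effect (FlipFlop minus B6) was called for 31.2% of tested genes and for 0 of the 4 members by limma, although *Ly6a* (-0.998, unadjusted p = 0.0437) and *Ly6e* (-0.18, unadjusted p = 0.0308) had an unadjusted p under 0.05. The sum was lower in FlipFlop mice, with a strain effect of -0.79 (standard error 0.14, adjusted p = 0.00157).

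The order of levels across the groups was thus not the same for each member. *Ly6c1* was highest in B6 CD4, followed by FlipFlop CD8, FlipFlop CD4 and then B6 CD8 T cells, and neither the first 2 nor the last 2 of these differed past the threshold. *Ly6c2* fell from B6 CD8 to FlipFlop CD4, FlipFlop CD8 and B6 CD4 T cells, each step past the threshold. The means of *Ly6a* were 276 ± 127, 155 ± 43.6, 89.8 ± 84.4 and 34.7 ± 28.2 CPM (SD, n = 3) in B6 CD4, FlipFlop CD8, B6 CD8 and FlipFlop CD4 T cells, and no neighbors in this order differed past the threshold. *Ly6e* had the same order, with 1629 ± 108, 1525 ± 149, 1266 ± 104 and 1058 ± 101 CPM, and again no neighbors differed past it. Levels of different genes can be compared per length of transcript. Per kilobase of the longest coding transcript, B6 CD4 T cells had mean levels of 714 CPM for *Ly6e*, 289 for *Ly6a*, 142 for *Ly6c1* and 7.46 for *Ly6c2*. In B6 CD8 T cells *Ly6c2* led with 761 CPM per kilobase, above *Ly6e* with 555. This order rests on the lengths used, 822 bases for *Ly6c2* and 2281 for *Ly6e*, and which transcripts were expressed was not measured. In CPM *Ly6e* was the higher of the pair there, with a mean of 1266 against 626 for *Ly6c2*. FlipFlop CD8 T cells had 669 for *Ly6e*, 163 for *Ly6a*, 90.9 for *Ly6c1* and 30.7 for *Ly6c2*, and FlipFlop CD4 T cells 464 for *Ly6e*, 311 for *Ly6c2*, 36.4 for *Ly6a* and 1.34 for *Ly6c1*. Some of these means lean on 1 library. Without replicate 1 the mean of *Ly6a* in FlipFlop CD4 T cells was 18.6 CPM in place of 34.7. Without replicate 3 that of *Ly6c2* in B6 CD4 T cells was 3.49 CPM in place of 6.14.

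Within each strain, the CD4 and CD8 libraries with the most *Ly6a* had the same replicate number. Among B6 libraries, replicate 3 was highest in CD4 (422 CPM) and in CD8 T cells (186 CPM), and among FlipFlop libraries replicate 1 was highest in both (67.0 and 206 CPM). The labels do not say what same-numbered libraries share. A list of 34 interferon-induced genes, all tested, was set beside this. As the mean log2 deviation from group means, the list stood 0.45 above in B6 CD4 replicate 3 and 0.49 above in B6 CD8 replicate 3, and between -0.27 and -0.21 in the other B6 libraries. In FlipFlop mice the list was highest in replicate 3, at 0.68 in CD4 and 0.56 in CD8 T cells, and not in replicate 1, at -0.20 and -0.14.

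Within the list, *Ly6a* went with some genes and not with others. Over the 12 libraries, its deviations from group means had a positive Pearson r with those of 32 of the 34 genes (median 0.35, range -0.10 to 0.90). *Igtp*, an immunity-related GTPase, was picked after its values were seen, with an r of 0.87. For *Ly6c2*, r was positive with 34 of 34 genes (median 0.65), for *Ly6c1* with 24 (median 0.13) and for *Ly6e* with 24 (median 0.11). These values describe 12 libraries whose same-numbered members may share a source. Of the 34 genes, 4 were higher and 1 lower between B6 CD4 and CD8 T cells, where 25.4% of all tested genes were called. In FlipFlop mice 1 was higher and 1 lower, beside 31.3% of all genes, and for the lineage effect 4 were higher and 2 lower, beside 39.3%, with a median of -0.09 beside -0.03 over all tested genes.

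**Figure D4:**
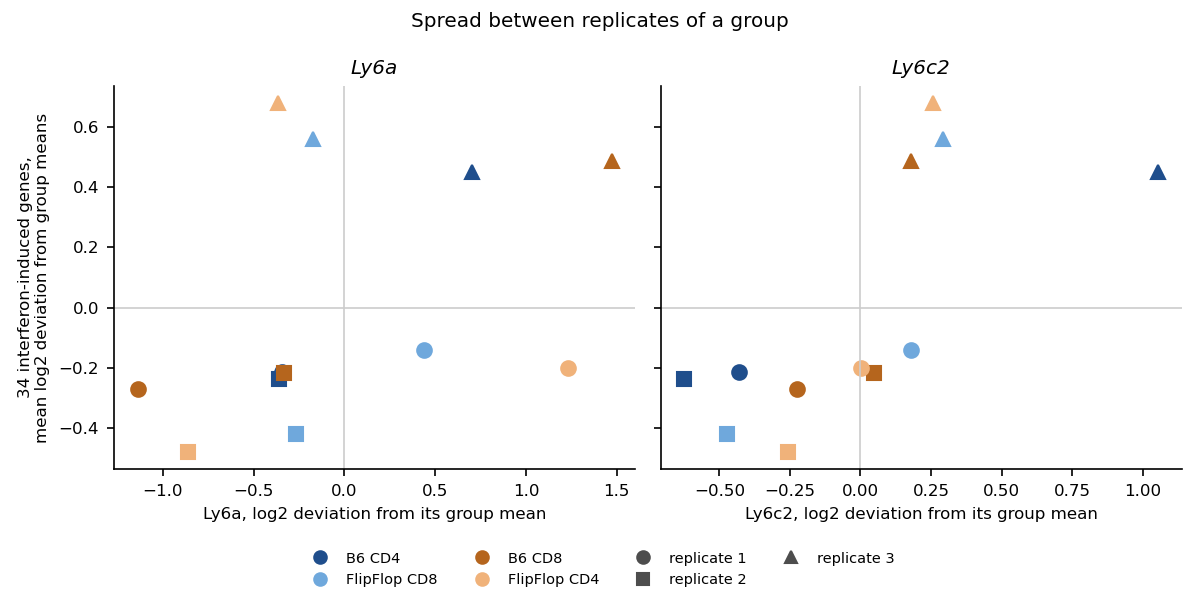
Mean log2 deviation of 34 interferon-induced genes from their group means (y axis) against the log2 deviation of *Ly6a* (left) and *Ly6c2* (right) from their group means, 1 point per library (12 in all). Replicate 3 libraries lie at the top in every group, from 0.45 to 0.68, where *Ly6c2* is above its group mean while *Ly6a* is above it in B6 and below it in FlipFlop mice.

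Other genes of the Ly6/uPAR family were few in these cells. Of 49 listed family genes 11 were in the table, and 10 passed the filter on low values, the 4 members included. For the lineage effect 5 were higher, 3 lower and 2 not called, beside 39.3% of all tested genes called, with a median of 0.27 beside -0.03 over all tested genes. *Plaur*, the urokinase receptor, fell in the *Cd4*-locus groups (-1.63, adjusted p = 7.27e-06), with means of 5.06 ± 0.875 CPM for CD8 and 1.64 ± 0.308 CPM for CD4 T cells of B6 mice and of 4.59 ± 1.76 CPM for CD4 and 0.852 ± 0.295 CPM for CD8 T cells of FlipFlop mice (SD, n = 3). *Lypd6b* was also lower (-0.46, adjusted p = 0.0251), while *Ly6g5b* (0.51, adjusted p = 0.0265) and *Lynx1* (0.29, adjusted p = 0.0218), a modulator of nicotinic receptors, were higher. By strain, the CD4 minus CD8 difference of *Lypd6b* was -0.19 (adjusted p = 0.557) in B6 and 0.72 (adjusted p = 0.0178) in FlipFlop mice, that of *Ly6g5b* 0.10 (adjusted p = 0.796) and -0.91 (adjusted p = 0.00943), and that of *Lynx1* 0.47 (adjusted p = 0.0160) and -0.11 (adjusted p = 0.562). *Ly6k* (-0.26, adjusted p = 0.360) and *Ly6d* (0.25, adjusted p = 0.287), a marker of B lineage cells, were not called. *Ly6i*, which lies in the cluster between *Ly6e* and *Ly6a*, was at 0 to 1.26 CPM in the 12 libraries and was not tested.

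Around the cluster, 12 genes within 500 kb of its ends were tested. Apart from the 4 members, 4 were higher in the *Cd4*-locus groups, 1 was lower and 3 were not called, beside 39.3% called over all genes. The largest of these differences were 1.17 for *Arc* (standard error 0.11), 376.3 kb from the start of *Ly6c1*, 1.17 for *2010109I03Rik* (standard error 0.12), at a mean of 0.712 CPM over the 12 libraries, and -0.55 for *Them6* (standard error 0.05). None was as large as that of *Ly6a*, and *Ly6c1* and *Ly6c2*, which have opposite signs, start 63.1 kb apart.

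**Figure D5:**
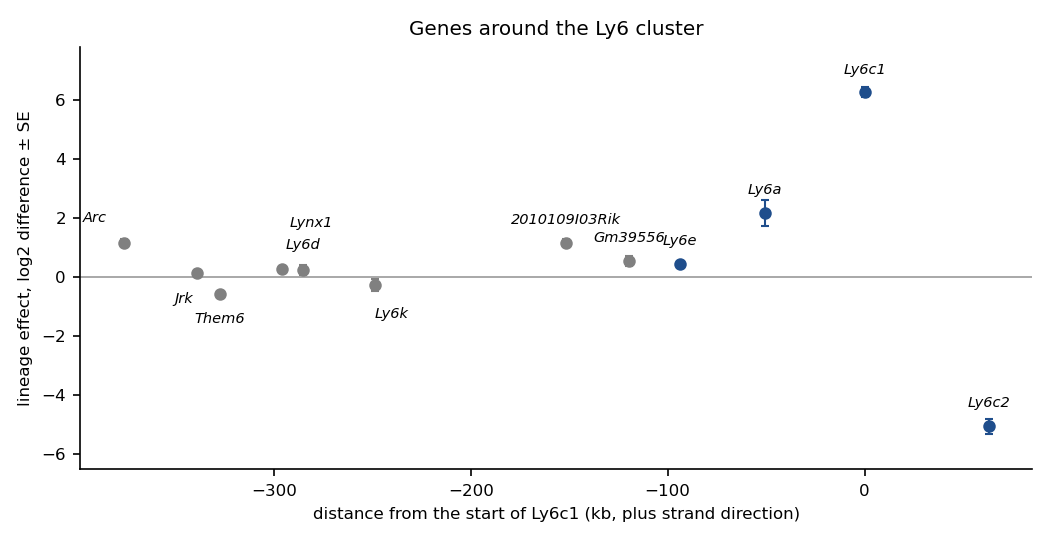
Lineage effect (y axis, log2 difference ± SE) of the 12 tested genes around the Ly6 cluster against the distance of their start from that of *Ly6c1* (x axis, kb). The 4 members are in blue; *Ly6c1* (6.27) and *Ly6c2* (-5.05) lie apart from the other genes, which are between -0.55 and 2.17.

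The genes whose levels were most like those of each member across the 12 libraries, on the log2(CPM + 0.5) scale, were found by Pearson r, as a description. For *Ly6c1* they were *Zbtb7b* (r = 0.99), *Lgmn*, a lysosomal protease (0.99), and *Ckb*, a creatine kinase (0.99). Mean levels of *Lgmn* and *Ckb* were 25.5 and 24.6 CPM for B6 CD4, 20.8 and 21.2 CPM for FlipFlop CD8 and at most 2.41 CPM for the other groups. For *Ly6c2* they were *Ap1ar* (0.99), *Zbed3* (0.98) and *Nedd4*, a ubiquitin ligase (0.98), whose means were 86.9 and 72.6 CPM for the *Cd8*-locus groups of B6 and FlipFlop mice and 5.86 and 14.9 CPM for their *Cd4*-locus groups. For *Ly6a* they were *Rgs12*, a regulator of G protein signaling (0.96), *Impa1* (0.93) and *Ly6e* (0.93). For *Ly6e* they were *Rnh1*, a ribonuclease inhibitor (0.96), *Ggt7* (0.96) and *BC004004* (0.95). All these points share libraries, and the r over values holds group differences as well as the spread within groups. Over deviations from group means, *Rgs12* had an r of 0.93 with *Ly6a*. The deviations of *Ly6a* and *Ly6e* from group means had an r of 0.74, those of *Ly6c1* and *Ly6c2* one of 0.32.

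Ly6 proteins need the GPI anchor to stay on the surface. Of 30 listed genes of anchor assembly and transfer 28 were tested, and for the lineage effect 2 were higher, 7 lower and 19 not called, beside 39.3% of all tested genes called, with a median of -0.03, the same as over all tested genes. The largest were *Piga*, a subunit of the enzyme that starts the anchor (-1.02, standard error 0.11), *Pigc* of the same enzyme (0.60, standard error 0.06) and *Pgap3*, which remodels anchors (-0.55, standard error 0.05). Of 12 tested genes of other GPI-anchored T cell proteins, 4 were higher, 4 lower and 4 not called. *Prnp*, the prion protein (2.50), and *Izumo1r*, the folate receptor 4 (2.28), were higher in the *Cd4*-locus groups, and *Cd160* (-1.53) was lower.

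Markers of T cell subsets moved with these comparisons, and their part in the results was not tested. For the lineage effect, 39.3% of all tested genes were called, and the counts of each list stand beside that share. Of 12 regulatory T cell genes, 11 were higher and 1 lower for the lineage effect, with *Foxp3*, the defining transcription factor, at a mean of 108 CPM for B6 CD4, 326 CPM for FlipFlop CD8, 0.967 CPM for B6 CD8 and 1.99 CPM for FlipFlop CD4 T cells. Their summed level was 651 to 804 CPM in B6 CD4, 1495 to 1685 in FlipFlop CD8, 279 to 381 in B6 CD8 and 163 to 239 in FlipFlop CD4 T cells. The gene that was lower was *Itgae* (-1.18), which encodes the αE integrin that CD8 T cells also carry, and it made up 169 to 274 CPM of the sum in B6 CD8 T cells. Its CD4 minus CD8 difference was -2.54 (adjusted p = 3.15e-05) in B6 and -0.18 (adjusted p = 0.682) in FlipFlop mice. For 17 memory or effector genes the lineage effect was higher for 7 and lower for 4. Their sum was 795 to 1098 CPM in B6 CD4, 1868 to 2033 in B6 CD8, 1389 to 1455 in FlipFlop CD4 and 1676 to 2253 in FlipFlop CD8 T cells. FlipFlop CD8 replicate 1 had 164 CPM of the chemokine *Ccl5*, against 15.3 and 35.8 CPM in the other 2 libraries of its group, and also the highest *Ly6a* and *Ly6c1* of that group. Of 10 naive T cell genes, 0 were higher and 3 lower. All 13 T cell genes were tested, with 4 higher and 4 lower. For FlipFlop CD8 minus B6 CD4, where *Ly6c2* was higher and 27.6% of all tested genes were called, 10 memory or effector genes were higher and 1 lower, 11 regulatory T cell genes were higher and 0 lower, and 0 naive genes were higher and 4 lower. For the coreceptor effect, where *Ly6c2* was lower and 5.49% of all tested genes were called, 0 memory or effector genes were higher and 8 lower, 0 regulatory T cell genes were higher and 5 lower, 2 naive genes were higher and 0 lower, and 0 NK cell genes were higher and 2 lower. For FlipFlop CD4 minus B6 CD8, where *Ly6c2* was lower and 7.92% were called, 1 memory or effector gene was higher and 3 lower. In that pair 4 regulatory T cell genes were higher and 1 lower, and 1 naive gene was higher and 1 lower. Of the NK cell and of the myeloid genes, 0 were higher and 2 lower in each list.

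Cells other than T cells can carry Ly-6C or Sca-1, so their markers were examined. Of 17 myeloid markers 10 were listed, with sums of 38.5 to 59.0 CPM in B6 CD4, 20.8 to 36.2 in B6 CD8, 11.4 to 15.3 in FlipFlop CD4 and 73.5 to 94.4 in FlipFlop CD8 T cells. *Csf1r*, *Spi1* and *Tyrobp* were at most 2.40, 1.66 and 1.88 CPM in any library. *Ccr2*, at 41.1 to 52.4 CPM in FlipFlop CD8 T cells, made up most of that group's sum. *Lyz2* averaged 15.7 and 15.4 CPM for the *Cd4*-locus groups of B6 and FlipFlop mice, and 9.61 and 5.26 CPM for their *Cd8*-locus groups. Among B6 CD4 libraries this was above *Ccr2*, which averaged 14.2 CPM there. *Itgam*, *Ms4a6c* and *Lyz1* reached at most 4.94, 5.60 and 6.14 CPM. For the lineage effect 6 of the 10 were higher and 0 lower, beside 39.3% of all tested genes called, the direction of *Ly6c1* and *Ly6a* and the opposite of *Ly6c2*. Of 10 endothelial markers 2 were listed, *Pecam1*, which T cells also express, at 112 to 186 CPM, and *Egfl7* at no more than 0.526 CPM. Of 10 markers of plasmacytoid dendritic cells 6 were tested, with 1 higher and 1 lower. *Ccr9*, also a homing receptor of T cells, fell by 3.36 in the *Cd4*-locus groups. Their sums were 168 to 199 CPM in B6 CD4, 384 to 423 in B6 CD8, 396 to 516 in FlipFlop CD4 and 177 to 217 in FlipFlop CD8 T cells.

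Of 14 B cell and plasma cell markers 13 were tested, with 3 higher and 1 lower for the lineage effect, where 39.3% of all tested genes were called. Their sums overlapped between the groups, at 609 to 787 CPM, of which the immunoglobulin gene *Ighm* made up 467 to 636 CPM. For FlipFlop CD4 minus B6 CD4, 9 of the 13 were lower and 1 higher, beside 28.4% called over all genes, and for the strain effect 5 were lower and 1 higher, beside 31.2%. For 7 of 10 NK cell markers, 2 were higher and 2 lower, and sums were 14.7 to 21.4 CPM in B6 CD4, 74.1 to 91.8 in B6 CD8, 50.1 to 98.2 in FlipFlop CD4 and 32.5 to 47.2 in FlipFlop CD8 T cells. *Eomes*, which T cells of memory type share with NK cells, was lower in the *Cd4*-locus groups (-2.73). Red blood cell genes (4 of 7) were not called for the lineage effect but all 4 were lower in FlipFlop mice, with sums of 15.9 to 28.8 CPM in B6 and 6.67 to 14.2 CPM in FlipFlop libraries.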

How the data were processed

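RNA of sorted LN T cells was measured in 12 libraries, 3 in each of 4 groups taken from the labels. Per the methods the authors used a SMARTer low-input kit, not stated to keep strand, sequenced paired ends and aligned reads to mm10 with STAR, while the submitters' processing notes list Trimmomatic and TopHat. The program that counted reads, the annotation and the filter on low values are not given in the sources used here. The deposited values are signal, CPM that the authors had scaled by TMM factors, in 1 table of 12809 genes, all matched by identifier to GENCODE M21 on GRCm38. The values are steps of 0.01 of a read. Under 100 CPM, 84.9% to 86.6% were whole (within 0.005 of a read), too few to recover counts, so no count test was run. None of the 66 pairs of libraries were identical.

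From these values, 11595 genes that reached 1 CPM in 3 or more libraries were fitted on the log2(CPM + 0.5) scale with limma 3.58.1 (lmFit, eBayes with trend) in R 4.3.3, with all 12 libraries and 1 mean per group, and 1214 genes were left out. Adjusted p-values are Benjamini-Hochberg values over all tested genes, and members were called under 0.05. The sum of *Ly6c1* and *Ly6c2* replaced both genes in a fit of its own, and sums and shares were compared by exact two-sided permutation tests over libraries with scipy 1.17.1. The rule of the methods, a change of more than 5-fold with a p under 0.05, was an alternative, taken here as an unadjusted p since the methods name no adjustment, beside pseudocounts of 0.1 and 1, other filters and scalings, no trend, fits of 6 libraries, a replicate block and each library left out. The script was tested on simulated data. Named were the members, the other family genes in the table, the 3 genes most like each member and up to 3 genes of each other list with the largest differences, and *Igtp*, *Ccl5*, *Itgae*, *Ighm* and cell markers of special interest were added after their values were seen. The members and lists were chosen with earlier results of these data known.

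Nothing in the labels says that replicates came from separate mice, so that p-values measure the spread between these libraries, which may be technical. Same-numbered CD4 and CD8 libraries had correlated deviations from their group means of 0.44, 0.27 and 0.51 in FlipFlop and 0.18, 0.089 and 0.35 in B6 mice. By a limit of 0.1 for every pair, the numbers pair the FlipFlop libraries and not the B6 libraries.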

Additional observations from a re-analysis of the deposited data

Results flagged for a closer look

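The CD4 minus CD8 difference of each Ly6 gene had opposite signs in B6 and FlipFlop mice, and the difference between the strains, tested as the interaction of strain and coreceptor in limma, passed the threshold for all 4 genes and the sum. That test is the lineage effect on another scale and not a further result, and 39.3% of all tested genes were called for it. For *Ly6c1* the B6 difference exceeded the FlipFlop difference by 12.53 on the log2 scale (standard error 0.35, adjusted p = 9.59e-11). For *Ly6c2* the value was -10.09 (standard error 0.50, adjusted p = 1.08e-08), for *Ly6a* 4.35 (standard error 0.89, adjusted p = 0.00181) and for *Ly6e* 0.89 (standard error 0.15, adjusted p = 0.000357). The sum of *Ly6c1* and *Ly6c2* gave -3.66 (standard error 0.27, adjusted p = 3.60e-07).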

How the results depend on the processing

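Apart from fits with a library left out, 296 of 312 values of single Ly6 genes kept their direction and side of the threshold, 75 of 78 values of the sum, and 74 of 87 counts of genes called stayed within 1.5 times. The share of all tested genes called was not computed for the alternative settings, so the counts of members below stand without it. For FlipFlop CD4 minus B6 CD8 the count of 1 member called became 0 with a pseudocount of 0.1, with columns rescaled without TMM factors, without a trend and when a call needed a change of more than 5-fold with an unadjusted p under 0.05. For FlipFlop CD8 minus B6 CD4 the count of 1 became 2 with a pseudocount of 1 and 0 under that joint rule, which also left 2 of 4 between B6 CD4 and CD8, 2 of 4 for the lineage effect and 0 of 2 for the coreceptor effect. A pseudocount of 0.1 left 1 of 2 for the coreceptor effect. The coreceptor effect of the sum, -0.50 (adjusted p = 0.0556), passed the threshold with median-of-ratios rescaling (-0.51, adjusted p = 0.0487), columns rescaled without TMM factors (-0.55, adjusted p = 0.0271) and the replicate block (-0.50, adjusted p = 0.0298). The replicate block, used as pairing, gave 2 members for FlipFlop CD4 minus B6 CD8, 2 for FlipFlop CD8 minus B6 CD4 and 1 for the strain effect, where the numbers are only shared, and changed no call of the Ly6 genes or the sum between FlipFlop CD4 and CD8 T cells. In B6 mice not every library correlated best with its own number. With 1 library left out, counts were 2 to 4 between B6 CD4 and CD8, 0 to 1 for FlipFlop CD4 minus B6 CD8, 1 to 2 for FlipFlop CD8 minus B6 CD4, 2 to 4 for FlipFlop CD8 minus B6 CD8, 1 to 2 for the coreceptor effect and 0 to 1 for the strain effect, and the sum's coreceptor effect was -0.58 to -0.41, past the threshold without B6 CD4 replicate 3 (adjusted p = 0.0237) or FlipFlop CD4 replicate 3 (adjusted p = 0.0458). The coreceptor effect of *Ly6c1* lost its call with a pseudocount of 0.1 (0.98, adjusted p = 0.0559). The strain effect called *Ly6c2* without B6 CD4 replicate 3 (0.68), *Ly6a* without B6 CD8 replicate 1 (-1.28) or FlipFlop CD4 replicate 1 (-1.31), and *Ly6e* without FlipFlop CD8 replicate 1 (-0.22). The B6 difference of *Ly6a* was not called without a trend (adjusted p = 0.0521) or in a fit of the 6 libraries compared (adjusted p = 0.0655). Between FlipFlop CD8 and B6 CD8, *Ly6e* was called with median-of-ratios rescaling (0.28), with columns rescaled without TMM factors (0.50, where the median of all genes was 0.20), in a fit of the 6 libraries compared (adjusted p = 0.0463), with the replicate block (adjusted p = 0.0314) and without B6 CD4 replicate 1 (adjusted p = 0.0363). Signs turned only for uncalled values: the strain effect of *Ly6c1* (0.08) with a pseudocount of 1 (-0.042) and with 1 library left out (-0.053 to 0.18), *Ly6e* for FlipFlop CD8 minus B6 CD4 with columns rescaled without TMM factors (0.069, where the median of all genes was 0.15), and the coreceptor effect of *Ly6a* with 1 library left out (-0.54 to 0.14, the latter without B6 CD8 replicate 3). The causes were not tested. Depth limits *Ly6c1* in B6 CD8 T cells, where 3.49 reads were counted in 1 library.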
